A study of Homo sapiens with 12 samples.

Results

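The family of dual-specificity phosphatases that act on MAP kinases was followed in HK-2 cells exposed to 2,8-dihydroxyadenine (DHA). It was taken as 10 genes, DUSP1, DUSP2, DUSP4, DUSP5, DUSP6, DUSP7, DUSP8, DUSP10, DUSP14 and DUSP16, out of 57527 genes that the deposited table measured. They were chosen by name as a family, with the results of these 12 libraries already known, so their levels and changes are given as a description and carry no p-value of their own. DHA is a poorly soluble purine that crystallises in the kidney when adenine phosphoribosyltransferase is lacking. HK-2 is an established human proximal tubule line, immortalised with papillomavirus genes and therefore a model of 1 line. The cells received medium alone (control) or medium with DHA in suspension at 60, 120 or 240 ug/ml for 72 h, and each of the 4 groups gave 3 libraries of poly(A)-selected RNA. No vehicle other than medium is described. It is not stated whether libraries of the same group are separate cultures, so the spread between them may be technical, and p-values measure that spread alone.

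MAP kinases (ERK, JNK and p38) are switched on by phosphorylation of a threonine and a tyrosine in their activation loop, and these phosphatases remove both phosphates. DUSP1, DUSP2, DUSP4 and DUSP5 are nuclear and are classically induced as early genes. DUSP6 and DUSP7 sit in the cytoplasm and prefer ERK, whereas DUSP8, DUSP10 and DUSP16 prefer JNK and p38. DUSP14 is a small atypical member without the kinase-docking domain of the others. Transcription of DUSP5 and DUSP6 is known to follow ERK activity, which makes these mRNAs common readouts of that pathway and part of its negative feedback. In kidney epithelium, as in other tissues, DUSP1 is known for limiting stress signalling through p38 and JNK.

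The values are the deposited normalized signal per transcript, summed per gene. No source names their unit. From the library totals they look like TPM, a level per transcript length, rescaled per library, and levels of different genes are set side by side here on that reading. The signal keeps no read depth. Library totals were 1143850 to 1228979 in control, 984048 to 1060084 with 60 ug/ml, 875886 to 962259 with 120 ug/ml and 791808 to 969479 with 240 ug/ml DHA. A gene was tested if its value was at least 1 in at least 3 libraries. In all, 16789 genes passed, among them 9 of the 10 phosphatase genes. Tests used limma on log2(value + 1), and a gene was called at a Benjamini-Hochberg adjusted p of 0.05 over all 16789 genes. Since totals fell as the dose rose, log2 fold changes depend on the scaling. Their median over all genes was -0.03 at each dose as deposited, and 0.13, 0.27 and 0.33 in order of dose once totals were made equal. Of 9 kidney epithelial markers 7 averaged at least 1, among them PAX8 (222.4 to 336.3 over the libraries), while PAX2 and CDH1 averaged below 1. The 9 summed to 1112.3 to 1202.8 at 240 ug/ml, against 1133.9 to 1179.8 in control, and EPCAM was 143.9 to 171.0 against 231.5 to 242.6. Of 10 proximal tubule markers 3 averaged at least 1, namely GGT1, MME and SLC5A2. The genes LRP2, SLC22A6 and SLC22A8 were listed at 0 throughout, and CUBN, AQP1, ANPEP and SLC34A1 averaged below 1. The 10 summed to 92.3 to 127.1 at 240 ug/ml, against 165.4 to 202.5 in control, most of it GGT1 (87.4 to 119.0 against 155.2 to 190.8). Endothelial and leukocyte markers were at or near 0, apart from CSF1R (8.6 to 13.8). The 6 fibroblast markers summed to 38.8 to 65.9 at 240 ug/ml, against 246.9 to 342.3 in control, with COL3A1, PDGFRA and PDGFRB averaging below 1. The part of these shifts in the phosphatase results was not tested. In bulk RNA, fewer cells with an mRNA and less of it per cell cannot be told apart.

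Promoters are shown for DUSP1, DUSP2, DUSP7, DUSP8 and DUSP16, the genes among the 8 searched whose single window overlaps no annotated exon. They let the classical early gene DUSP1 be read beside its relatives. Of the 10 genes, 8 have a promoter entry in the RefSeq table (GRCh38.p14), and DUSP4 and DUSP5 have none there. The 250 bases before each start site are given 5′ to 3′ on the gene's strand, which is the minus strand for all 5. Capitals mark the cyclic AMP response element TGACGTCA and its short form TGACG, on either strand. The short form overlaps the full element.
DUSP1, chr5:172771196-172771445: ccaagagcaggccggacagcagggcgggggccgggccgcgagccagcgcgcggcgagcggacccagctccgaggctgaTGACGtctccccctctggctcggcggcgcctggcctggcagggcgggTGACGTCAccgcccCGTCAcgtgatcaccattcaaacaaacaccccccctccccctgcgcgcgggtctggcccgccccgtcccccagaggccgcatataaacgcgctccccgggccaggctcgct
DUSP2, chr2:96145441-96145690: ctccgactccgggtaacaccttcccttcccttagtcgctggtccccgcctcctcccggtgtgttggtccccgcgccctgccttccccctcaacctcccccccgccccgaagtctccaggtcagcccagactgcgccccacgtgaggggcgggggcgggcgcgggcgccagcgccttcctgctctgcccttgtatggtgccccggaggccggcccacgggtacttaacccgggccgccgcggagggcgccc
DUSP7, chr3:52056572-52056821: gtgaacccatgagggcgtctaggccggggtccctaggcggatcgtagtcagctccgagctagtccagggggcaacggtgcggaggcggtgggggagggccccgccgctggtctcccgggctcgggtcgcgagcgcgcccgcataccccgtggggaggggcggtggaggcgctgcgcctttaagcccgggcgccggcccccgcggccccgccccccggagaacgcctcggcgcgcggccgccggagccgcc
DUSP8, chr11:1572272-1572521: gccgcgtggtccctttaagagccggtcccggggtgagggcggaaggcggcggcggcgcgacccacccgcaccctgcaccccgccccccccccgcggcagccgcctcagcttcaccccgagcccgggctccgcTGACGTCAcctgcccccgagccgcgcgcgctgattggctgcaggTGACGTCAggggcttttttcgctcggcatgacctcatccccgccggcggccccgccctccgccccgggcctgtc
DUSP16, chr12:12562864-12563113: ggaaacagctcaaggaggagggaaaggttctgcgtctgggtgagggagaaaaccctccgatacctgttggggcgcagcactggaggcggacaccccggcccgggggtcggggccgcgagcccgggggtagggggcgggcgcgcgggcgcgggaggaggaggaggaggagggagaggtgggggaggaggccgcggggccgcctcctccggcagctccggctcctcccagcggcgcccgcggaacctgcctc
The full element stood at -125 to -118 in DUSP1, counted from the start site, and at -118 to -111 and -74 to -67 in DUSP8. It was found in 1.65% of 35116 promoter windows of the same length, and its short form in 21.2%. DUSP1 also had a TATA box (TATAAA on the gene's strand) at -30 to -25, which 6.8% of windows hold anywhere. Neither the full element nor its short form was found in the windows of DUSP2, DUSP6, DUSP7, DUSP10, DUSP14 and DUSP16. No window of the 8 genes held an AP-1 site (TGANTCA, 6.57% of windows), the ETS site CCGGAAG (8.52%) or a CArG box of serum response factor (1.16%), each searched on both strands. The GC box GGGCGG, found in 42.6% of windows on either strand, was present in 7 of the 8 genes and was not found for DUSP6. A match is a description of letters, not evidence of a bound site. The RefSeq window of DUSP6 lies within an exon of the transcript DUSP6-201 and is not shown. The window of DUSP14 and 1 of the 2 windows of DUSP10 also overlap exons, and these genes are not shown. The RefSeq starts of DUSP7, DUSP8 and DUSP16 lie upstream of the GENCODE genes.

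Among the nuclear, inducible phosphatases, DUSP5 gained the most. DUSP5 (ENSG00000138166.5, chromosome 10, 110497838 to 110511544, plus strand of GRCh38) dephosphorylates ERK in the nucleus. Its level was 21.4, 18.1 and 14.5 in the control libraries, 68.1, 50.7 and 59.5 with 60 ug/ml, 101.1, 94.3 and 84.6 with 120 ug/ml and 112.9, 124.8 and 93.3 with 240 ug/ml DHA. Every DHA library lay above every control library and the 120 ug/ml libraries lay above those at 60 ug/ml, while the groups at 240 and 120 ug/ml overlapped. The log2 fold change against control was 1.68 with 60 ug/ml, 2.32 with 120 ug/ml and 2.56 with 240 ug/ml DHA (SE 0.15 each). The change at 60 ug/ml amounted to 65.5% of the log2 change at 240 ug/ml, and that at 120 ug/ml to 90.9%. The ratio of the group means was 6.13 for 240 ug/ml over control.

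DUSP2 (ENSG00000158050.4, chromosome 2, 96143166 to 96145440, minus strand), best known from activated immune cells, stood at a low level and had its highest mean at the lowest dose. It measured 2.3, 2.4 and 1.9 in control, 6.3, 5.5 and 5.9 with 60 ug/ml, 4.4, 5.5 and 5.2 with 120 ug/ml and 4.5, 5.5 and 5.0 with 240 ug/ml DHA. The DHA groups overlapped one another and none overlapped the control. The log2 fold change was 1.11 with 60 ug/ml, 0.91 with 120 ug/ml and 0.91 with 240 ug/ml DHA (SE 0.12 each), which understates the change of so low a gene. The means were 2.68, 2.29 and 2.27 times that of control.

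DUSP1 (ENSG00000120129.5, chromosome 5, 172768090 to 172771195, minus strand), the classical stress-induced phosphatase, moved the opposite way on the deposited scale. It was 55.8, 53.9 and 57.0 in control, 45.3, 43.2 and 43.0 with 60 ug/ml, 39.9, 36.6 and 45.4 with 120 ug/ml and 45.1, 47.1 and 44.5 with 240 ug/ml DHA. All DHA libraries lay below all controls, and the 3 doses overlapped one another. The log2 fold changes were -0.34, -0.45 and -0.28 at the 3 doses in ascending order (SE 0.08 each). With equal library totals they became -0.14, -0.09 and 0.15 and none was called, so the direction at 240 ug/ml turned with the scaling. The call at 240 ug/ml was also lost when the trend of fold change with GC content was subtracted (-0.17). Against the median of all genes with equal library totals, DUSP1 still lay lower at each dose.

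DUSP4 (ENSG00000120875.8, chromosome 8, 29333064 to 29350668, minus strand), a nuclear phosphatase for ERK and JNK, was the member that did not pass the filter. It was listed at 0.1, 0.1 and 0.0 in control and did not exceed 0.3 in any DHA library. At values this close to the last decimal kept, no change could be read. The 4 nuclear phosphatases therefore held a gene that rose with dose, a gene that rose at a low level, a gene that fell on the deposited scale and a gene barely listed.

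**Figure D1:**
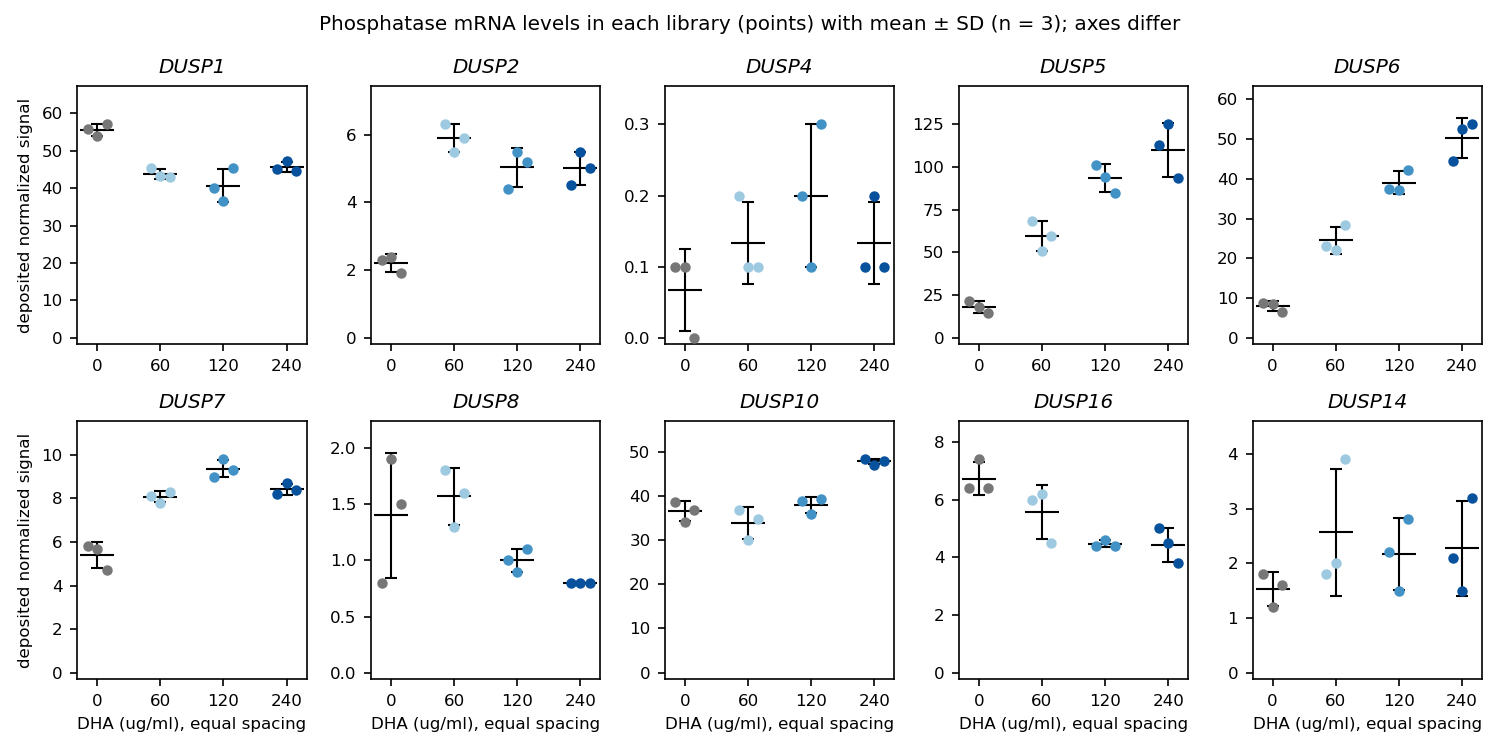
Deposited normalized signal of the 10 phosphatase genes (vertical axis, scaled per gene) against DHA dose in ug/ml (horizontal axis, equal spacing), with points for libraries and bars for mean ± SD (n = 3). DUSP5 and DUSP6 climb through the doses, DUSP2 and DUSP7 are already high at 60 ug/ml, DUSP10 is high at 240 ug/ml, and DUSP1 lies below control at each dose on this scale.

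DUSP6 (ENSG00000139318.7, chromosome 12, 89347232 to 89353271, minus strand), the cytoplasmic ERK phosphatase, was higher at each dose than at the one before in every library. It measured 8.8, 8.5 and 6.6 in control, 23.0, 22.0 and 28.5 with 60 ug/ml, 37.5, 37.2 and 42.3 with 120 ug/ml and 44.6, 52.6 and 53.7 with 240 ug/ml DHA. No 2 of the 4 groups overlapped. The log2 fold change against control was 1.51 with 60 ug/ml, 2.16 with 120 ug/ml and 2.52 with 240 ug/ml DHA (SE 0.125 each), and 240 ug/ml lay 1.01 above 60 ug/ml. The means were 3.08, 4.9 and 6.31 times that of control.

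DUSP7 (ENSG00000164086.9, chromosome 3, 52048919 to 52056550, minus strand), a close relative of DUSP6 with the same preference for ERK, rose by less and peaked at the middle dose. It was 5.8, 5.7 and 4.7 in control, 8.1, 7.8 and 8.3 with 60 ug/ml, 9.0, 9.8 and 9.3 with 120 ug/ml and 8.2, 8.7 and 8.4 with 240 ug/ml DHA. All DHA libraries lay above the controls, the 120 ug/ml libraries lay above both other doses, and 240 and 60 ug/ml overlapped. The log2 fold changes were 0.51, 0.70 and 0.56 in order of dose (SE 0.09 each).

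The phosphatases of JNK and p38 followed no common direction. DUSP10 (ENSG00000143507.17, chromosome 1, 221701424 to 221742176, minus strand) changed at the highest dose. Its level was 38.7, 34.2 and 36.9 in control, 36.9, 30.0 and 34.8 with 60 ug/ml, 38.8, 35.9 and 39.3 with 120 ug/ml and 48.3, 47.1 and 48.0 with 240 ug/ml DHA. The 3 libraries at 240 ug/ml lay above all 9 others, which overlapped. The log2 fold change was -0.11 with 60 ug/ml and 0.05 with 120 ug/ml, neither called, and 0.38 with 240 ug/ml DHA (SE 0.08 each), where it was called. With equal library totals the value at 120 ug/ml was 0.41 and was called.

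DUSP16 (ENSG00000111266.8, chromosome 12, 12474210 to 12562383, minus strand), which binds JNK most strongly, fell on the deposited scale. It was 6.4, 7.4 and 6.4 in control, 6.0, 6.2 and 4.5 with 60 ug/ml, 4.4, 4.6 and 4.4 with 120 ug/ml and 5.0, 4.5 and 3.8 with 240 ug/ml DHA. Every DHA library lay below every control, and the doses overlapped one another. Its log2 fold change was -0.24 with 60 ug/ml (not called), -0.50 with 120 ug/ml and -0.51 with 240 ug/ml DHA (SE 0.125 each). With equal totals the changes at 120 and 240 ug/ml were -0.19 and -0.145 and were not called.

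DUSP8 (ENSG00000184545.10, chromosome 11, 1554044 to 1571920, minus strand) was near the filter, at 0.8, 1.9 and 1.5 in control, 1.8, 1.3 and 1.6 with 60 ug/ml, 1.0, 0.9 and 1.1 with 120 ug/ml and 0.8 in each library with 240 ug/ml DHA. It was below the filter value in all 3 libraries at 240 ug/ml and passed through the other groups. The control libraries spanned the range of all other groups, and no change against control was called. Leaving out the first control library, the lowest of the 3, gave a log2 fold change of -0.58 at 240 ug/ml, in place of -0.39, and it was then called. Summing only coding transcripts also called it there, at -0.38. The processed pseudogene DUSP8P5, at 0.6 to 1.4 in all libraries, and the antisense gene KRTAP5-AS1, which overlaps DUSP8 and reached at most 0.8, were of a similar level, so the assignment to DUSP8 is uncertain. The pseudogene DUSP5P1 reached at most 4.4 and did not exceed 3.3 at any DHA dose, while DUSP5 stood at 50.7 or more.

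DUSP14 (ENSG00000276023.4, chromosome 17, 37489831 to 37513501, plus strand) was low and variable. It was 1.8, 1.2 and 1.6 in control, 1.8, 2.0 and 3.9 with 60 ug/ml, 2.2, 1.5 and 2.8 with 120 ug/ml and 2.1, 1.5 and 3.2 with 240 ug/ml DHA. In each DHA group the library numbered 3 was the highest, and all DHA groups overlapped the control. The log2 fold changes of 0.45, 0.31 and 0.34 in order of dose were not called (SE 0.25 each).

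Counted over the 9 genes tested, 4 were higher (DUSP2, DUSP5, DUSP6 and DUSP7) and 1 lower (DUSP1) at 60 ug/ml than in control. Background shares over all tested genes were 8.89% called higher and 10.0% called lower. At 120 ug/ml the same 4 were higher and 2 were lower, DUSP1 and DUSP16, where 15.9% of all genes were called higher and 20.8% lower. At 240 ug/ml DUSP10 joined the higher genes, giving 5 higher and 2 lower, where 19.7% of all genes were called higher and 23.5% lower. Between 240 and 60 ug/ml, 3 genes were higher (DUSP5, DUSP6 and DUSP10) and 0 lower, with 11.7% of all genes called higher and 13.1% lower. That 0 comes from limma, in which DUSP8 had the lowest log2 fold change (-0.51, SE 0.18). Because the genes were chosen with these results known, the counts describe them and are no test against that background. The median log2 fold change of the 9 genes was 0.45, 0.31 and 0.38 in order of dose. With equal library totals the members called became 4, 5 and 5 higher and 0 lower at each dose. The split over all genes became 2687 higher and 668 lower with 60 ug/ml, 6052 and 1379 with 120 ug/ml, and 7234 and 1520 with 240 ug/ml DHA, in place of 1492 and 1685, 2670 and 3485, and 3306 and 3938.

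**Figure D2:**
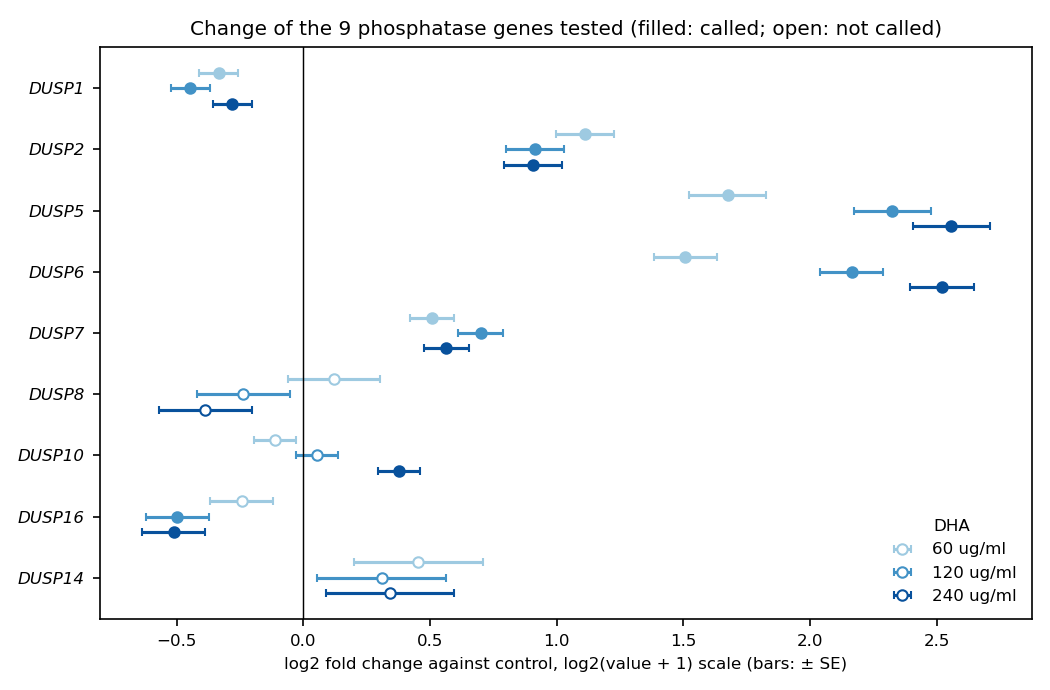
Log2 fold change against control on the log2(value + 1) scale (horizontal axis) of the 9 phosphatase genes tested, at 60, 120 and 240 ug/ml DHA, with bars for ± SE and filled points for changes called over all genes. DUSP5 and DUSP6 lie furthest to the right at each dose, ending at 2.56 and 2.52, while DUSP1 and DUSP16 lie left of 0.

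The makeup of the 10 genes changed with the dose. Their relative DUSP9, at 17.1 to 19.1 with 240 ug/ml, is not counted here. The summed level of the 10 genes was 131.1 to 141.9 in control, 168.8 to 197.5 with 60 ug/ml, 226.4 to 238.5 with 120 ug/ml and 260.8 to 292.8 with 240 ug/ml DHA, with no overlap between groups. DUSP1 was the highest of the 10 in every control library, with 39.3% to 43.5% of the sum, and DUSP10 came next with 25.6% to 28.1%. DUSP5 was the highest in all 9 DHA libraries. The ratio of DUSP1 to DUSP5 was 0.38 to 0.48 at 240 ug/ml, against 2.61 to 3.93 in control. DUSP5 and DUSP6 together made up 56.4% to 60.6% of the sum at 240 ug/ml, against 16.1% to 21.3% in control. DUSP6 ranked below DUSP1, DUSP10 and DUSP5 in the 3 controls and next after DUSP5 in 2 of the 3 libraries at 240 ug/ml, while the order of DUSP6, DUSP10 and DUSP1 there varied between libraries. Ratios within a library do not depend on the library's scaling.

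DUSP5 and DUSP6 kept a similar proportion to each other. The ratio of DUSP5 to DUSP6 was 2.13 to 2.43 in control, 2.09 to 2.96 with 60 ug/ml, 2.0 to 2.7 with 120 ug/ml and 1.74 to 2.53 with 240 ug/ml DHA. The groups overlapped throughout, and in each DHA group the library numbered 3 gave the lowest ratio.

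**Figure D3:**
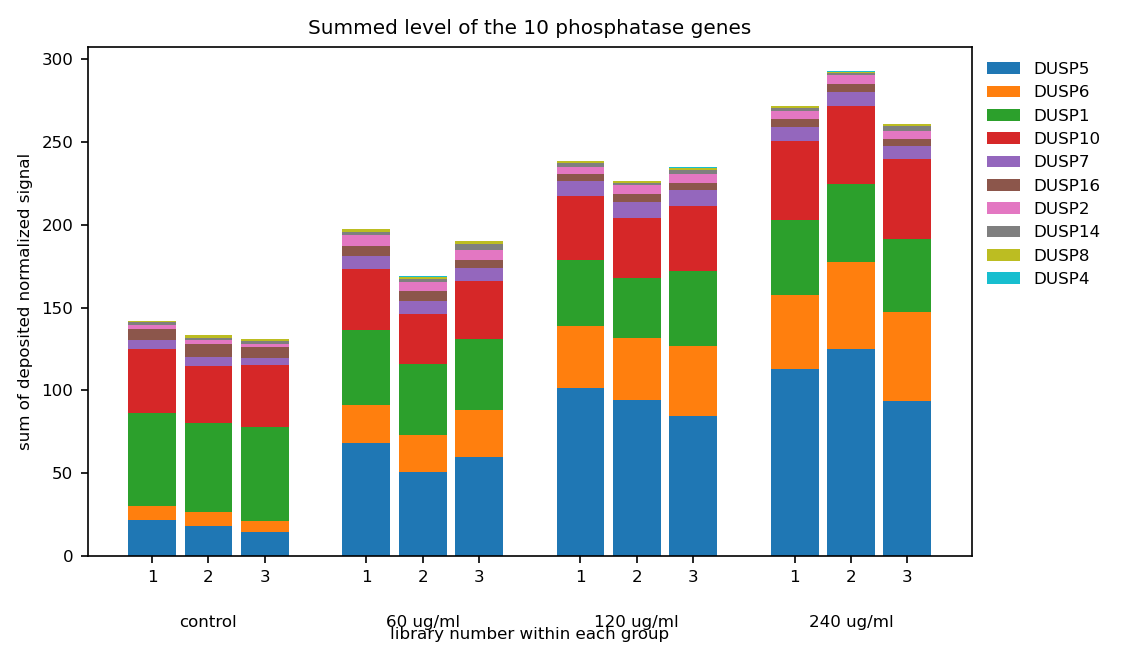
Summed deposited normalized signal of the 10 phosphatase genes (vertical axis) in each of the 12 libraries (horizontal axis, by group), stacked by gene. The sum grows from control to 240 ug/ml through DUSP5 and DUSP6, while DUSP1 and DUSP10 make up most of the control bars.

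The table is per transcript, so the gene sums could be taken apart. DUSP5 was carried by its coding transcript DUSP5-201, with a mean share of 97.7% at 240 ug/ml and 97.8% in control. DUSP1 has 1 matched transcript. DUSP7 was carried by DUSP7-202, at 93.7% and 93.8%. DUSP2 was carried by DUSP2-201, while its retained-intron form DUSP2-202 was listed at 0 in control and averaged 0.2 at 240 ug/ml.

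DUSP6 was spread over 3 coding transcripts and all 3 increased. DUSP6-201, the longest at 4400 bases, averaged 27.1 ± 4.4 at 240 ug/ml and 4.23 ± 1.15 in control (SD, n = 3). The second coding transcript averaged 12.9 ± 1.54 and 2.57 ± 0.586, and DUSP6-202 averaged 10.3 ± 1.65 and 1.17 ± 0.751. The share of DUSP6-201 was 53.8% ± 5.49 at 240 ug/ml and 52.7% ± 9.35 in control, a difference smaller than the spread between libraries. The antisense gene ENSG00000274021, which overlaps DUSP6, did not exceed 0.9 in any library.

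DUSP10 differed from control in the shares of its transcripts at 240 ug/ml. Its coding transcript DUSP10-201 averaged 39.2 ± 0.603 at 240 ug/ml and 32.3 ± 2.33 in control. DUSP10-203, annotated as a target of nonsense-mediated decay, measured 7.0, 6.2 and 7.2 at 240 ug/ml, against 4.8, 3.8 and 3.6 in control. DUSP10-202, of the same annotation, measured 1.5, 1.8 and 1.8 at 240 ug/ml, against 0.0, 0.8 and 0.0 in control. It was already at 2.0, 0.9 and 1.9 with 60 ug/ml and at 1.1, 1.4 and 0.8 with 120 ug/ml. Its mean shares were 4.63%, 2.92% and 3.56% in order of dose, against 0.78% in control. The coding share was 81.9% ± 1.36 at 240 ug/ml and 88.1% ± 1.9 in control, with 87.3% ± 2.01 at 60 ug/ml and 87.6% ± 2.71 at 120 ug/ml. DUSP10-203 held mean shares of 8.06%, 9.3% and 14.2% in order of dose, against 11.1% in control. Transcripts of 1 gene share sequence, so their reads can only be divided by estimation, and these shares were not tested.

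**Figure D4:**
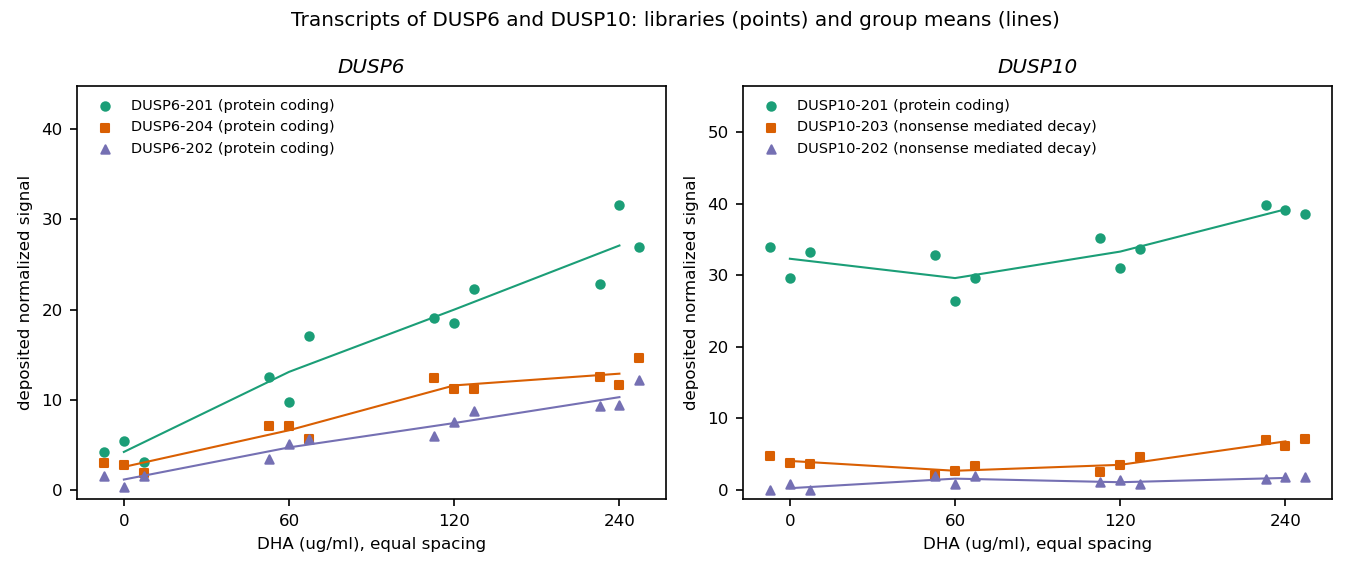
Deposited normalized signal (vertical axis) of the 3 leading transcripts of DUSP6 and of DUSP10 against DHA dose in ug/ml (horizontal axis, equal spacing), with points for libraries and lines through group means. All 3 DUSP6 transcripts climb with dose, and DUSP10-201 and DUSP10-203 are highest at 240 ug/ml.

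The leading transcripts differed in the AU-rich pentamer ATTTA, which in the 3′ untranslated region is a known mark of short-lived mRNAs. DUSP1 held 4 copies in 672 bases, or 5.95 per kb, above 93.2% of genes, and DUSP2 held 3 in 657 bases, or 4.57 per kb, above 87.0%. DUSP5 and DUSP7 held 0 copies in 1118 and 1896 bases, and DUSP6 held 1 in 2022 bases, where the median gene has 1.66 per kb. DUSP14, not called at any dose, held 3 in 618 bases, or 4.85 per kb. DUSP10, DUSP16 and DUSP8 held 3, 5 and 4 copies in longer regions. The comparison covers 11275 tested genes whose leading transcript is coding, the rates those with at least 100 bases of this region. The genes are compact. The leading transcripts of 8 of the 10 have 3 or 4 exons, those of DUSP8 and DUSP16 have 7, and the median gene has 8. The GC content, weighted over the transcripts of a gene, was 63.8% for DUSP2 and 48.5% for DUSP6. Across genes the log2 fold change correlated with GC content at r = 0.26 with 60 ug/ml, 0.02 with 120 ug/ml and -0.11 with 240 ug/ml DHA, over 16776 genes of the same libraries.

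Genes whose pattern came closest to a phosphatase gene were found by centring log2(value + 1) on the control mean and taking the root mean square difference over the 12 libraries, among 12712 coding genes outside the family. Closest to DUSP6 were HMGA2 (0.19), an architectural chromatin protein, FBXO32 (0.23), a muscle-atrophy ubiquitin ligase, the AP-1 factor FOSL1 (0.25) and MYEOV (0.26). Their means at 240 ug/ml and in control were 326.9 and 56.5 for HMGA2, 208.4 and 44.7 for FBXO32, 130.8 and 28.4 for FOSL1, and 17.1 and 2.6 for MYEOV. Closest to DUSP10 were CERT1 (0.08), ACBD3 (0.083), PCNX4 (0.084) and SH3KBP1 (0.086). Closest to DUSP1 were SCAMP1 (0.058), RHOQ (0.064), ZNF22 (0.069) and PRRG1 (0.071). Genes that change little are close to many others, so the short distances to DUSP10 and DUSP1 say little.

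Other dual-specificity phosphatases were measured beside the 10 genes. The nearest relative among them is DUSP9, an X-linked cytoplasmic phosphatase of the DUSP6 type. It measured 7.7, 8.4 and 7.6 in control, 15.6, 14.1 and 18.6 with 60 ug/ml, 18.0, 18.5 and 20.5 with 120 ug/ml and 17.1, 18.2 and 19.1 with 240 ug/ml DHA. All 9 DHA libraries lay above the controls, and the groups at 120 and 240 ug/ml overlapped. DUSP9 rose by a log2 fold change of 0.935 with 60 ug/ml (SE 0.1, limma adjusted p = 4.37e-04), 1.17 with 120 ug/ml (limma adjusted p = 2.64e-05) and 1.10 with 240 ug/ml DHA (limma adjusted p = 1.91e-05).

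Of 12 tested genes for other dual-specificity phosphatases, most of them atypical, 1 was higher (DUSP9) and 7 were lower at 240 ug/ml, with a median of -0.345. Of all tested genes 19.7% were called higher and 23.5% lower at that dose. At 60 ug/ml 1 of the 12 was higher and 1 lower, beside 8.89% and 10.0% of all genes. At 120 ug/ml 1 was higher and 5 were lower, beside 15.9% and 20.8% of all genes. With equal library totals the list had 4 higher and 2 lower at 240 ug/ml and a median of 0.05, so its direction turned with the scaling. DUSP22, which acts on JNK signalling, averaged 17.2 ± 2.02 at 240 ug/ml and 28.1 ± 1.01 in control (SD, n = 3; log2 fold change -0.69, SE 0.09, limma adjusted p = 1.68e-04). DUSP28 averaged 1.37 ± 0.153 and 3.67 ± 0.379 (-0.98, limma adjusted p = 0.0016), a change that was -0.215 and not called when only coding transcripts were summed.

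The genes of the kinases that these phosphatases act on come next. At 240 ug/ml 4 of the 12 tested MAP kinase genes were higher and 2 lower (median 0.10), beside 19.7% higher and 23.5% lower among all genes. MAPK13, a p38 gene, averaged 38.4 ± 4.44 at 240 ug/ml and 28.4 ± 0.681 in control (0.42, SE 0.08, limma adjusted p = 0.00164). MAPK7, which encodes ERK5, averaged 25.4 and 18.8 (0.42, SE 0.12, limma adjusted p = 0.0175) and lost its call without the first control library (0.39), the third control library (0.35) or the second library at 240 ug/ml (0.38). MAPK3, which encodes ERK1, averaged 22.6 ± 1.37 at 240 ug/ml and 32.4 ± 2.27 in control (log2 fold change -0.50, SE 0.10, limma adjusted p = 0.00154), a change that was not called with equal library totals (-0.08). The JNK gene MAPK8 was 58.7 at 240 ug/ml and 55.5 in control, and the p38 gene MAPK14 was 35.8 and 33.3, with limma adjusted p-values of 0.381 and 0.379. Both were called higher with equal library totals (0.51 and 0.52). MAPK10, a JNK gene best known from neurons, fell to 2.97 at 240 ug/ml, against 9.9 in control (-1.48, SE 0.235, limma adjusted p = 4.82e-04).

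Upstream, at 240 ug/ml 2 of 7 MAP kinase kinase genes rose and 0 fell, where 19.7% of all genes were called higher and 23.5% lower. MAP2K3, an activator of p38, averaged 41.4 at 240 ug/ml and 22.9 in control (0.83, SE 0.08, limma adjusted p = 2.89e-05). MAP2K7 (0.39, limma adjusted p = 0.019) lost its call without the second control library (0.38) or without the third library at 240 ug/ml (0.26). Of 23 MAP3 kinase genes 6 were higher and 3 lower, beside 19.7% and 23.5% of all genes. Of 25 genes for RAS proteins and their regulators 7 were higher and 6 lower, close to those shares. Among the MAP3 kinases MAP3K15 (0.87) and MAP3K5 (0.54), which activate p38 and JNK under stress, were highest and MAP3K12 (-1.21) and MAP3K13 (-0.90) lowest. MAP3K15 was not called when only coding transcripts were summed (0.22). RRAS, a RAS-related GTPase, averaged 37.5 at 240 ug/ml and 119 in control (-1.66, SE 0.18, limma adjusted p = 4.91e-05), and RASA1, a RAS GTPase-activating protein, averaged 80.9 and 44.0 (0.87, SE 0.13, limma adjusted p = 3.23e-04). Its relative RASA3 averaged 6.87 and 3.03 (0.97, limma adjusted p = 4.72e-05), and the adaptor SHC2 averaged 1.27 and 8.13 (-2.01, limma adjusted p = 1.45e-04). The scaffold list had 2 of 10 higher and 2 lower, also close to the shares of all genes. PEA15, which holds ERK in the cytoplasm, was lower (-0.80, limma adjusted p = 2.59e-04), as was LAMTOR3, a scaffold for MEK and ERK (-0.68, limma adjusted p = 0.0011), which was not called with equal library totals (-0.26). The JNK scaffolds SH3RF1 (0.93, limma adjusted p = 4.38e-05) and MAPK8IP2 (0.64, limma adjusted p = 0.00255) were higher.

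Other phosphatases that act on MAP kinases had 1 of 8 higher and 1 lower at 240 ug/ml, beside 19.7% higher and 23.5% lower among all genes. PPM1D, a p53-induced phosphatase of p38, was lower (-0.97, SE 0.12, limma adjusted p = 9.63e-05), and PPP2R2A, a regulatory subunit of PP2A, was higher (0.89, SE 0.19, limma adjusted p = 0.00303). Of 10 kinases activated by MAP kinases, 5 were higher and 1 lower, beside the same shares of all genes. RPS6KA3, a kinase downstream of ERK, averaged 73.5 at 240 ug/ml and 38.1 in control (0.93, SE 0.09, limma adjusted p = 3.35e-05), and MAPKAPK3, a target of p38, averaged 84.8 and 50.3 (0.74, SE 0.085, limma adjusted p = 6.25e-05). MAPKAPK2, the lower one at -0.24, was 0.19 with equal library totals. It lost its call with quantile normalization (-0.137) or with the GC trend subtracted (-0.133). The call was also lost without the first control library (-0.205) or without the second library at 240 ug/ml (-0.19). The counts of these lists depended on the scaling. With equal library totals, 10 of 12 MAP kinase genes were higher and 1 lower, 5 of 7 MAP kinase kinases higher and 0 lower, 19 of 23 MAP3 kinases higher and 2 lower, and 14 of 25 RAS genes higher and 2 lower. The same scaling gave 4 of 10 scaffolds higher and 1 lower, 7 of 8 other phosphatases higher and 1 lower, and 8 of 10 activated kinases higher and 0 lower, while 7234 of all 16789 genes were called higher.

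Genes used elsewhere as readouts of ERK output rose beside DUSP5 and DUSP6. Of 8 such genes outside the family 7 were higher and 0 lower at each of the 3 doses. Over all tested genes 8.89%, 15.9% and 19.7% were called higher in order of dose, and 10.0%, 20.8% and 23.5% lower. The list's medians were 1.00, 1.29 and 1.36 in order of dose. Under each of the 3 other scalings of the libraries 7 of its genes were higher at 240 ug/ml. The list's genes were known to have moved in these libraries, so it is not independent evidence of direction. CCND1, the cyclin D1 gene, measured 69.6, 69.6 and 60.7 at 240 ug/ml, against 6.7, 5.8 and 4.4 in control. PHLDA1 averaged 125 at 240 ug/ml and 30.0 in control (2.03, SE 0.125, limma adjusted p = 3.99e-06). EPHA4, an ephrin receptor named after its values were seen, was the exception at -0.15 (limma adjusted p = 0.455). Among 20 transcription factors of the pathway 10 were higher and 2 lower at 240 ug/ml, beside 19.7% and 23.5% of all genes. FOSL1 at 2.16 and FOSB at 1.62 were highest, and JUNB at -0.67 and JUND at -0.59 lowest. JUNB and JUND were not called with equal library totals (-0.24 and -0.16), where 15 of the 20 were higher and 0 lower.

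**Figure D5:**
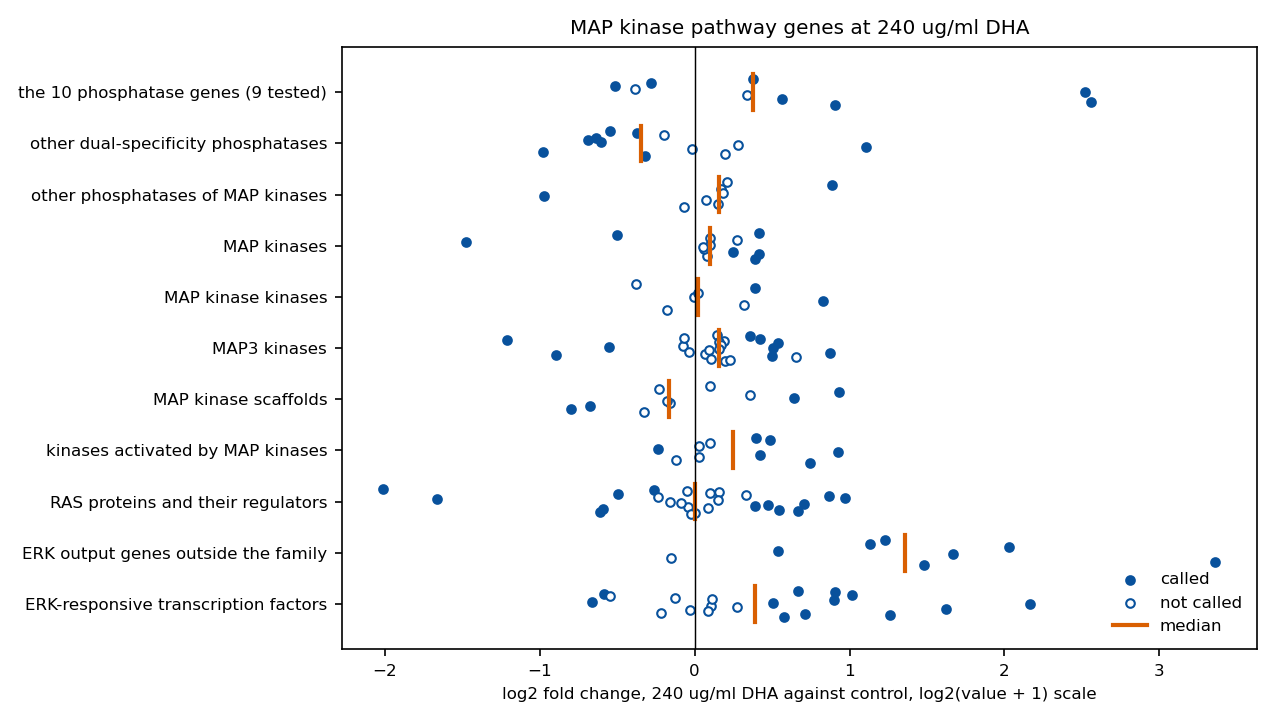
Log2 fold change at 240 ug/ml DHA against control (horizontal axis) of the 9 phosphatase genes tested and of 10 lists of MAP kinase pathway genes (rows), with filled points for genes called over all genes and an orange line for the median. In the deposited scaling the ERK output list has a median of 1.36, while the medians of the kinase lists lie between 0.022 and 0.247.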

How the data were processed

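Messenger RNA of 12 HK-2 libraries was analysed, grouped by the doses in the submitters' sample titles. The deposited values are a normalized signal per Ensembl transcript, 1 per library, written to 1 decimal. Per the submitters' processing notes the build is GRCh38.p14, and the aligner, quantification tool, strand setting and annotation are named by none of these sources. Read depth is therefore unknown, and no counting interval was given.

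Of 267165 transcripts, 202305 (75.7%) matched GENCODE release 29 by identifier without version and were summed into 57527 genes, with 93.8% to 94.7% of each library's total. A gene can miss a transcript that is not in that release. Those reaching 1 in 3 or more libraries (16789) were fitted with limma 3.58.1 in R 4.3.3, intensity trend on, on log2(value + 1) with 1 mean per group and no covariate. P-values are two-sided and adjusted over all genes. Named genes are the 10 phosphatase genes, up to 2 of the highest and 2 of the lowest called genes of each pathway list at 240 ug/ml, 4 MAP kinase genes of which MAPK3, MAPK8 and MAPK14 are reported here, and the 4 genes nearest in pattern to DUSP6, DUSP10 and DUSP1. The members and lists were chosen with earlier results of these data known. On simulated data over 16789 genes for 240 ug/ml against control, 50 genes were shifted at each size and the rest left unchanged. The fit found 38% of genes shifted by 0.5 on the log2 scale, 90% of genes shifted by 1 and 98% at shifts of 2 and 3. Of 172 calls, 10 were false. The simulation had far fewer changed genes than these data, noise independent between libraries and no fall in totals, so its rates need not hold here. Alternatives covered the pseudocount, the filter, the scaling, the transcripts summed, the variance model, GC content, the replicate block and leaving out each library.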

Additional observations from a re-analysis of the deposited data

How the results depend on the processing

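Counts of calls and log2 fold changes were recomputed under 13 other settings and without each of the 12 libraries in turn, where the gene still passed the filter. Sums, ratios, transcript shares and distances between patterns were not recomputed. The higher calls of DUSP2, DUSP5, DUSP6 and DUSP7 against control and of DUSP10 at 240 ug/ml were kept in all 25 settings. Equal library totals gave 2687, 6052 and 7234 genes higher and 668, 1379 and 1520 lower at 60, 120 and 240 ug/ml, 4055 higher and 884 lower between 240 and 60 ug/ml, and 93 higher and 9 lower among the pathway list genes at 240 ug/ml (45 and 24 in the deposited scaling). In that scaling 0 phosphatase genes were called lower at any dose, DUSP1 stood at 0.15 and MAPKAPK2 at 0.19 at 240 ug/ml. With the GC trend subtracted, 1 phosphatase gene was lower at 240 ug/ml, with or without the replicate block, DUSP1 losing its call. Between 240 and 60 ug/ml, subtracting the GC trend gave 1384 genes lower without that block and 1743 with it. Fitting only the 2 groups compared gave 958 higher and 1106 lower there. Summing only coding transcripts, or no intensity trend, called 1 phosphatase gene, DUSP8, lower between 240 and 60 ug/ml. Leaving out 1 library gave 920 to 1558 genes higher and 968 to 1877 lower at 60 ug/ml. Between 240 and 60 ug/ml it gave 911 to 2412 higher and 1145 to 2591 lower, and 0 to 1 phosphatase genes lower: DUSP8 without the first control library, DUSP16 without the third at 60 ug/ml. Where not stated, the cause of a change was not tested.

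Libraries share replicate numbers across groups. Of 18 same-numbered pairs, 6 had deviations correlated above 0.1 (median 0.057, against -0.035 for other pairs). Pairs of libraries numbered 3 reached 0.236, those numbered 2 reached 0.138 and those numbered 1 reached at most 0.063. Of the 12 libraries, 9 correlated best with their own number, so same-numbered libraries may share part of their deviation. The sample titles do not call the numbers pairs, and the main fit had no replicate block. The replicate block gave 1846, 3028 and 3626 genes higher and 2137, 3898 and 4275 lower at 60, 120 and 240 ug/ml, and it left each count of phosphatase genes as it was.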
